A study of Mus musculus with 11 samples.

Results

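A set of 83 genes was listed at 0 in untreated 4T1 cells and at 0.1 FPKM or more after 4HC, whether or not the type I interferon receptor was blocked by an antibody. 4T1 is a mouse mammary carcinoma line. FPKM counts the fragments of a gene relative to its length in kilobases and to the library's depth in M reads (M is the mega prefix). The members were chosen by these 3 measured group means from the 24197 rows of the expression table, of which 9655 were at 0 in control. Names of microRNA, small nucleolar RNA, histone, tripartite motif, serpin, collagen, guanylate-binding, interferon-inducible, oligoadenylate synthetase (Oas), chemokine and interleukin families were left out by rule, which removed 45 of 128 rows that met the levels, 33 of them microRNA loci. A control level of 0 and a level after 4HC are therefore properties of the choice and are given as descriptions without a test.

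A total of 4 conditions were compared to ask which responses to 4HC, the activated form of cyclophosphamide used in culture, depend on the type I interferon receptor. Control cells received vehicle and were collected at 72 h (2 libraries). Cells in the 4HC group received 5 uM drug for 4 h and were collected 68 h later (3 libraries), and cells in the third group also received IFNAR1 antibody (clone MAR1-5A3) at 10 ug/mL, during the exposure and afterwards (3 libraries). The IFNβ group received 250 U/mL of recombinant mouse IFNβ1 for 4 h with no drug (3 libraries). By the sample labels these cells were collected 2 h later, although a time of 68 h stands in the treatment protocol, so IFNβ and 4HC differ in time as well as in agent. All groups share one cell line, RNA came from single wells, and by the study's methods the libraries of a group came from independent cultures.

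Gene-level silence in a carcinoma line usually reflects cell identity. Genes of leukocytes, hair, lens or liver are kept off in mammary cells by closed chromatin, DNA methylation or lack of the right activators. Cyclophosphamide crosslinks DNA, and DNA damage can set off inflammatory signalling through NF-kB and, by way of cytosolic nucleic acids, through interferon. Type I interferon binds the receptor subunits IFNAR1 and IFNAR2, and its targets often carry an interferon-stimulated response element (ISRE) close to their start site.

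The deposited values are means of a group. Because each mean is a sum of whole reads over library totals and gene length, reads of single libraries could be worked back for 16504 of 18190 rows above 0 (90.7%) and for all 83 members. The libraries held 32.1 to 49.3 M reads. Control libraries pooled to 69.4 M reads, less than those of 4HC (108.7 M), 4HC with antibody (118.1 M) and IFNβ (126.0 M). Libraries of a group are numbered by falling depth, since they cannot be tied to the replicate numbers of the labels. Rows above 0 numbered 14542 in control, 16811 after 4HC, 17062 with antibody and 15159 with IFNβ, so detection was broader after 4HC than in the more deeply sequenced IFNβ group. Odorant receptor rows, which serve as a silent family, were above 0 in 18 of 1122 rows in control, 42 after 4HC, 51 with antibody and 22 with IFNβ, and their summed levels were 2.52, 4.92, 4.66 and 1.75 FPKM. None of these odorant receptor rows was a member, and the part of this broader detection in the members' levels was not tested.

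The labelled cell type matched its markers. All 9 markers of simple epithelium with a row were at 1 FPKM or more in every group, with a summed level of 452 FPKM in control and 735 after 4HC. Of 14 leukocyte markers, 13 were at 0 in control and 7 after 4HC, with summed levels of 0.00597 and 0.191 FPKM. After 4HC Cd4, Cd8a, Ms4a1, Nkg7 and Ncr1 were at 0, while Lyz2 had 0.0633 FPKM, Itgam 0.0436, Csf1r 0.0336 and Itgax 0.0303. Among 4 fibroblast markers Lum was at 0 in every group, Pdgfra had 0.496 FPKM in control and 3.38 after 4HC, and Dcn is itself a member. By the labels the cultures were of the 4T1 line. For genes of other cell types, more cells of the line with such RNA and more RNA per cell cannot be told apart in bulk RNA.

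Promoters are shown for S100a8 and Kcnab1, the highest protein-coding members that had an entry, for Clca3a1, which carried many reads, and for Pilrb1 and Pilrb2, near copies that lie within 50 kb of each other. They were chosen after the matches in all members had been seen. Each runs from 250 bases before to 50 bases after the start, 5′ to 3′ on the gene's strand, as RefSeq gives it in GRCm38.p6 (the expression table is in mm9). Capitals mark matches, on either strand, to the ISRE core (TTTC, any 2 bases, TTTC), the GAS element TTCNNNGAA, the AP-1 site TGANTCA, the GC box GGGCGG, the TATA box TATAAA, the CCAAT box or the kB site.
S100a8 (chr3:90668821-90669120, plus strand): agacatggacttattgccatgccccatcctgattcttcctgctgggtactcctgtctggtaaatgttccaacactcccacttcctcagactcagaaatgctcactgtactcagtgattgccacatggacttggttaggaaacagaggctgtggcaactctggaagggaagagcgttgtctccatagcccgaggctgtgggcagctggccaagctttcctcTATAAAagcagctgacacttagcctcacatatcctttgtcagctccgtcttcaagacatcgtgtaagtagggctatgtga
Kcnab1 (chr3:64948962-64949261, plus strand): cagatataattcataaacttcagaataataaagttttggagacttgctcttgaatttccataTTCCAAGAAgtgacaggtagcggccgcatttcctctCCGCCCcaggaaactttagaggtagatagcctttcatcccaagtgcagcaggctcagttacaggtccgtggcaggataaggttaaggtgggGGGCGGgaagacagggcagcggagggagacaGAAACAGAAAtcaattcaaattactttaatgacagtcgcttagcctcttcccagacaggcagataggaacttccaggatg
Clca3a1 (chr3:144760928-144761227, minus strand): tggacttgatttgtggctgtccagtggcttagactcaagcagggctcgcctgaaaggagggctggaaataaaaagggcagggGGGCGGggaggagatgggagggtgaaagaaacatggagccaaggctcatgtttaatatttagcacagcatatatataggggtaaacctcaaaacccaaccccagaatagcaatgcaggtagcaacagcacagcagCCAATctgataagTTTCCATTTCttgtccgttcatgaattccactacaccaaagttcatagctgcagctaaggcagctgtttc
Pilrb1 (chr5:137858000-137858299, minus strand): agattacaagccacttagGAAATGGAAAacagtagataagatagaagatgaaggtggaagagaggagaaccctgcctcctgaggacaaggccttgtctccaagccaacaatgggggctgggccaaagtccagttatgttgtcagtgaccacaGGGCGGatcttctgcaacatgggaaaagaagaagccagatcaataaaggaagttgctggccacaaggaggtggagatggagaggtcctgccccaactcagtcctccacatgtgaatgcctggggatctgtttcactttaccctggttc
Pilrb2 (chr5:137871709-137872008, minus strand): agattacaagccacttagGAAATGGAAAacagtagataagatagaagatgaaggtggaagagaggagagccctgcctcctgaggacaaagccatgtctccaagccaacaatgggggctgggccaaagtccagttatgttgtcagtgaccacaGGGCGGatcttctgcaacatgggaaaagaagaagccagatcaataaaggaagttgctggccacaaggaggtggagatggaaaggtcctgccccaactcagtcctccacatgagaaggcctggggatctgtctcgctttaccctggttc

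The ISRE core letters stood in Kcnab1, Clca3a1, Pilrb1 and Pilrb2, and in 3.49% of 27025 promoters of the same length. Among the 55 members with a promoter entry, 6 held these letters and the others did not. The promoters shown were chosen after the matches had been seen, so they do not stand for the members as a set. The S100a8 window held only the TATA box, which 14.2% of all promoters hold. GAS letters were found in 8.47% of all promoters, AP-1 letters in 7.93%, a GC box in 35.9%, a CCAAT box in 37.9% and a kB site in 8.18%. The windows of Pilrb1 and Pilrb2 were the same at 292 of 300 bases without gaps. Only 55 of the 83 members had a promoter entry (66.3%, under the 80% needed), so a comparison of motif or CG shares between members and all genes is void. A match is a run of letters and says nothing of binding.

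Levels after 4HC were low throughout. The members' group means ran from 0.1002 to 1.60 FPKM with a median of 0.201, and 42 members reached 0.2 FPKM, 6 reached 0.5 and 2 reached 1. With antibody the means ran from 0.1002 to 1.60 FPKM with a median of 0.198. A member had between 3 and 291 reads over the 4HC libraries, with a median of 35, and 78 of 83 had reads in all 6 libraries given 4HC. The exceptions were Asb17os, Tex40, Oxt, Scarna2 and Hcst. At its level after 4HC, a member would have given a median of 23.1 reads in the pooled control libraries, and fewer than 5 in Scarna2, Hcst, Oxt and Asb17os, so a control level of 0 says little for those 4 genes. Set against a floor of 3 reads over the control libraries, the 4HC mean was 7.70-fold in the median member. It was 2-fold or more in 79 members and 10-fold or more in 26. The rule set both the control of 0 and the 4HC level, so these folds are descriptions and not bounds on a rise.

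**Figure D1:**
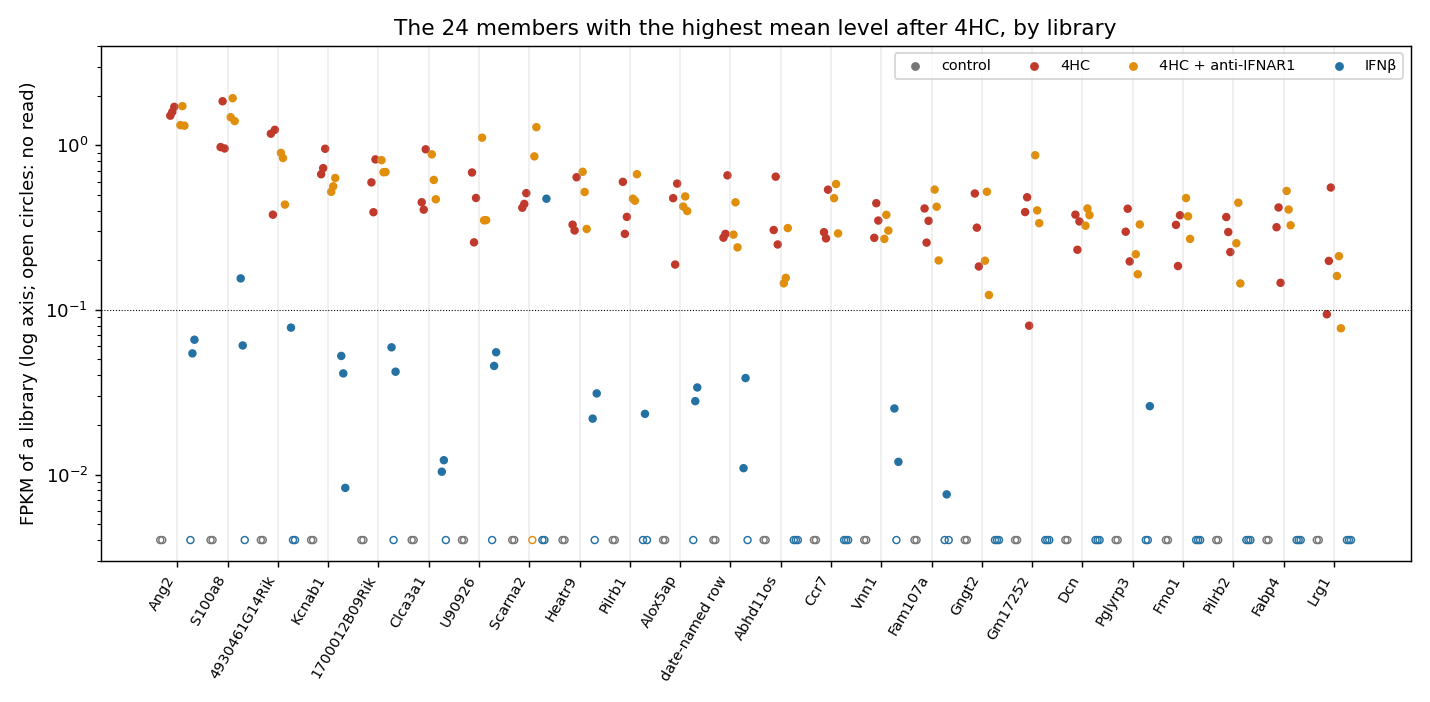
FPKM of single libraries (log axis) for the 24 members with the highest mean after 4HC, with open circles at the foot for libraries without a read and a dotted line at 0.1 FPKM. No control library had a read, the 4HC libraries with and without antibody lie together, and the IFNβ points lie below them in most genes.

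Ang2 and S100a8 were the highest members. Ang2 (chr14:51815160-51815598 in mm9), a secreted ribonuclease of the angiogenin family, had 26, 26 and 24 reads in the 4HC libraries, 24, 29 and 22 with antibody and 0, 1 and 1 with IFNβ. Its level was 1.60 ± 0.0997 FPKM (SD, n = 3) after 4HC, 16.2-fold over the control floor, and 1.45 ± 0.235 with antibody. S100a8 (chr3:90472992-90473956), a subunit of the neutrophil protein calprotectin, had 15, 27 and 12 reads, then 24, 29 and 21 with antibody and 3, 1 and 0 with IFNβ. In both genes every library given 4HC lay above every IFNβ library, while the libraries with and without antibody overlapped. S100a9, 22595 bases from S100a8, was at 0 in all 4 groups. Ang2 belongs to a family of related genes, and whether its reads could come from another of them was not tested.

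Kcnab1 and Clca3a1 carried the most reads. Kcnab1 (chr3:64913289-65182147), a cytoplasmic beta subunit of voltage-gated potassium channels, had 91, 94 and 106 reads after 4HC, 75, 75 and 84 with antibody and 9, 6 and 1 with IFNβ. That is 0.780 ± 0.150 FPKM (SD, n = 3) after 4HC, 62.8-fold over the control floor, and 0.571 ± 0.0560 with antibody. It is 1 of 9 members whose span overlaps another row of the table, and whether counting used the strand is not given in the sources used here. Clca3a1 (chr3:144392640-144423941), of the calcium-activated chloride channel regulator family, had 69, 59 and 118 reads, then 142, 92 and 70 with antibody and 2, 2 and 0 with IFNβ. After 4HC it was 54.1-fold over the control floor. Its near copy Clca3a2, 35581 bases away, was lower at 0.113 ± 0.0851 FPKM (SD, n = 3) after 4HC and had no read with IFNβ. The split of reads between Clca3a1 and Clca3a2 is uncertain. The other channel and transport members were Kcnmb4, a beta subunit of calcium-activated potassium channels, and Atp6v0a4, a subunit of the proton pump, at 0.134 and 0.101 FPKM.

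Genes best known from immune cells made up 14 members by a grouping drawn up after the values were seen, which has no background share. On the leukocyte marker list 1 of 87 silent rows (1.15%) was a member, near the 0.953% of all silent rows. Their median level was 0.233 FPKM after 4HC, 0.251 with antibody and 0.00704 with IFNβ, and 5 of them had no read with IFNβ. Ccr7 (chr11:99005512-99016391), the chemokine receptor that guides lymphocytes and dendritic cells to lymph nodes, had 23, 20 and 34 reads after 4HC, 39, 44 and 22 with antibody and none with IFNβ. Alox5ap, which presents arachidonic acid to 5-lipoxygenase for leukotriene synthesis, was at 0.416 ± 0.204 FPKM (SD, n = 3) after 4HC and 0.436 ± 0.0465 with antibody. Fyb, an adaptor of T cell receptor signalling, had 40, 53 and 26 reads after 4HC, 43, 52 and 60 with antibody and none with IFNβ. The paired activating receptors Pilrb1 and Pilrb2 were at 0.418 ± 0.161 and 0.296 ± 0.0708 FPKM (SD, n = 3), with 1 read between them in the IFNβ libraries. Because they are near copies, the split of reads between them is uncertain. Cd69, an early activation marker of lymphocytes, was the sole member of the antiviral and interferon-stimulated list, at 0.249 ± 0.102 FPKM (SD, n = 3) after 4HC, 0.279 ± 0.0614 with antibody and no read with IFNβ. These levels sit beside 14 leukocyte markers, of which 13 were at 0 in control and 7 after 4HC. By the labels the cultures were of the 4T1 line, and a part of other cells in the members' levels was not tested.

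Secreted and matrix proteins gave 10 members by the same grouping, with no background share. Dcn (decorin), a collagen-binding proteoglycan of fibroblasts, had 31, 18 and 23 reads after 4HC, 28, 33 and 30 with antibody and none with IFNβ. Lrg1, an acute-phase glycoprotein, varied between libraries, with 5, 10 and 24 reads after 4HC and 9, 11 and 4 with antibody. Figf, which encodes the lymphatic growth factor VEGF-D, was at 0.170 ± 0.0409 FPKM (SD, n = 3) after 4HC, 0.244 ± 0.0483 with antibody and 0.0897 ± 0.0287 with IFNβ. Wnt6, a ligand of the Wnt family, had 13, 6 and 7 reads after 4HC and 16, 18 and 17 with antibody. Oxt, the oxytocin precursor, rested on 2, 1 and 3 reads after 4HC, too few to place its level.

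Enzymes of metabolism gave 8 members by the same grouping, again with no background share. All lay between 0.121 and 0.355 FPKM after 4HC, and 4 had no read with IFNβ. The highest was Vnn1, the pantetheinase that releases vitamin B5 from pantetheine, with 26, 40 and 27 reads after 4HC, 27, 35 and 28 with antibody and 3, 0 and 1 with IFNβ. Fmo1, a flavin monooxygenase that oxidizes drugs, and Fabp4, the fatty acid carrier of adipocytes and macrophages, had no read with IFNβ and were at 0.296 ± 0.0993 and 0.294 ± 0.138 FPKM (SD, n = 3) after 4HC. Plb1, a phospholipase, was spread over its libraries with 28, 25 and 57 reads after 4HC and 53, 38 and 23 with antibody. Genes of other tissues were Krt13, a keratin of stratified mucosa, Upk2 of the bladder lining, Bfsp1 of the lens and Mlana of pigment cells, at 0.119 to 0.280 FPKM. Krt13 had 5, 5 and 14 reads after 4HC and 7, 22 and 3 with antibody, so single libraries carried its means. Foxn1, the transcription factor of thymic epithelium and hair, and Ngfr, the low-affinity neurotrophin receptor, were at 0.174 and 0.155 FPKM after 4HC.

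Noncoding RNAs gave 8 members, a count with no background share. The lncRNA 4930461G14Rik was the highest of them and had 36, 11 and 31 reads after 4HC, 29, 25 and 13 with antibody and 3, 0 and 0 with IFNβ. U90926 had 14, 5 and 8 reads after 4HC and 24, 7 and 7 with antibody. Abhd11os, which overlaps its protein-coding partner Abhd11, had 6, 12 and 4 reads after 4HC, 3, 3 and 6 with antibody and none with IFNβ. Scarna2 (chr3:108357259-108357320), a small Cajal body RNA of 61 bases by the recovered length, reached 0.456 FPKM with 1 read in each 4HC library, and no fold is given since both groups are at or under the floor of 3 reads. Among all 83 members, 7 were annotated as lncRNA, 72 as protein-coding, 1 as guide RNA, and 3 had no annotation matched. One row carries a date in place of its name (chr11:87391890-87404041), at 0.406 ± 0.216 FPKM (SD, n = 3) after 4HC.

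Few silent rows met the same minimum in the other direction or with IFNβ. With the left-out names set aside, 116 rows at 0 in control reached 0.1 FPKM after 4HC, 123 with antibody and 17 with IFNβ. At a minimum of 0.5 FPKM these counts were 6, 11 and 4, and at 1 FPKM they were 2, 2 and 1, so the groups lay closer at higher minima. The rule took 0.953% of the 8711 rows at 0 in control, whereas 0.195% reached the minimum with IFNβ. The reverse, 0 after 4HC and 0.1 FPKM or more in control, held for 2 rows, and 1 row was at 0 in both 4HC groups. With no name left out, 26 rows were at 0 in both 4HC groups and at the minimum in control, 24 of them microRNA loci, against 128 rows in the members' direction. Depth differs between these directions, since the control libraries pooled to fewer reads than any other group. Set against IFNβ, the deepest group, 69 rows at 0 there reached 0.1 FPKM after 4HC and 7 did so in control. With 1 control library left out the rule took 160 rows without library 1 and 155 without library 2, all 83 members among them, because silence is easier to meet with fewer reads. Leaving out a library of the 4HC or antibody group gave 72 to 90 rows.

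**Figure D2:**
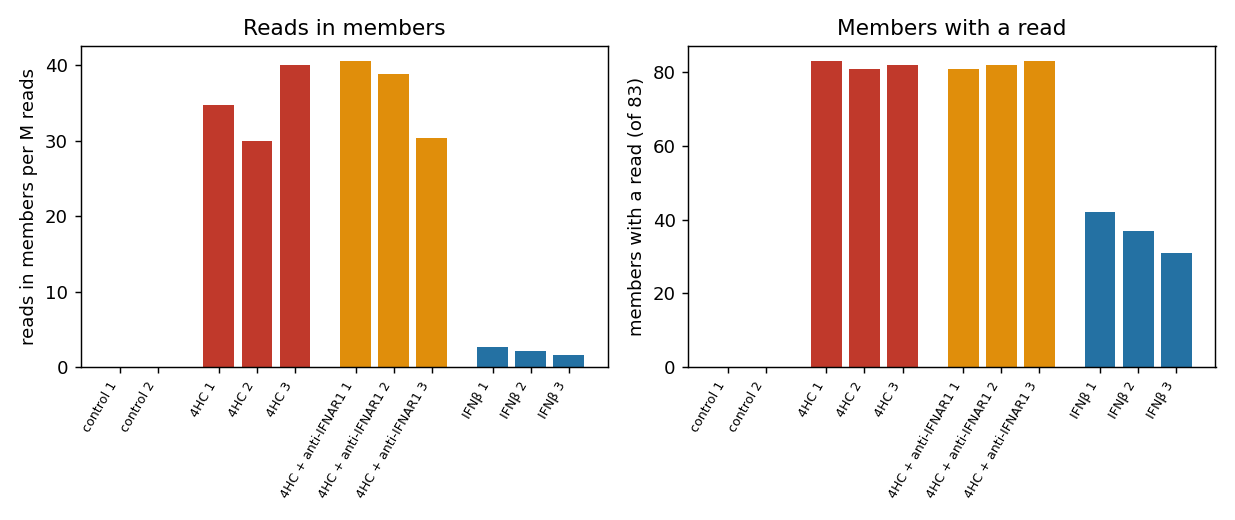
Reads in the 83 members per M reads of a library (left) and members with at least 1 read (right), for each of the 11 libraries. The 4HC libraries with and without antibody hold 29.9 to 40.5 reads per M reads, IFNβ libraries 1.59 to 2.63 and control libraries 0.

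With IFNβ the members were close to silent. Summed over members, the 4HC libraries held 34.7, 29.9 and 40.1 reads per M reads, the antibody libraries 40.5, 38.8 and 30.4, and the IFNβ libraries 2.63, 2.07 and 1.59. The members showing at least 1 read numbered 42, 37 and 31 in the IFNβ libraries, against 81 to 83 in each library given 4HC. In the IFNβ group, 25 members had no read, 20 had reads in 1 library, 24 in 2 and 14 in all 3. In 74 members (89.2%) all IFNβ libraries lay below all 4HC libraries, beside 39.6% of resolved rows at 0.1 FPKM or more in both 4HC groups. The rule set the 4HC level and a control of 0, whereas nearly all of the rows set beside the members were above 0 in control. Both shares are therefore descriptions. The agent and the time of collection (2 h or 68 h after exposure) cannot be told apart.

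Scarna2 alone reached 0.1 FPKM with IFNβ, at 0.158 FPKM from a single read. The next were Prss46, a serine protease, with 8, 4 and 4 reads and 0.0988 ± 0.0273 FPKM (SD, n = 3), Figf, and Ubd, a ubiquitin-like modifier known to be induced by interferon gamma and TNF, with 6, 3 and 1 reads and 0.0789 ± 0.0496 FPKM. Prss46 had 4, 4 and 6 reads after 4HC and its IFNβ and 4HC libraries overlapped. Hcst, the adaptor DAP10 of natural killer cell receptors, and Efcab9, a calcium-binding protein of sperm, followed at 0.0764 and 0.0737 FPKM. The Hcst value came from 5 reads in 1 library.

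**Figure D3:**
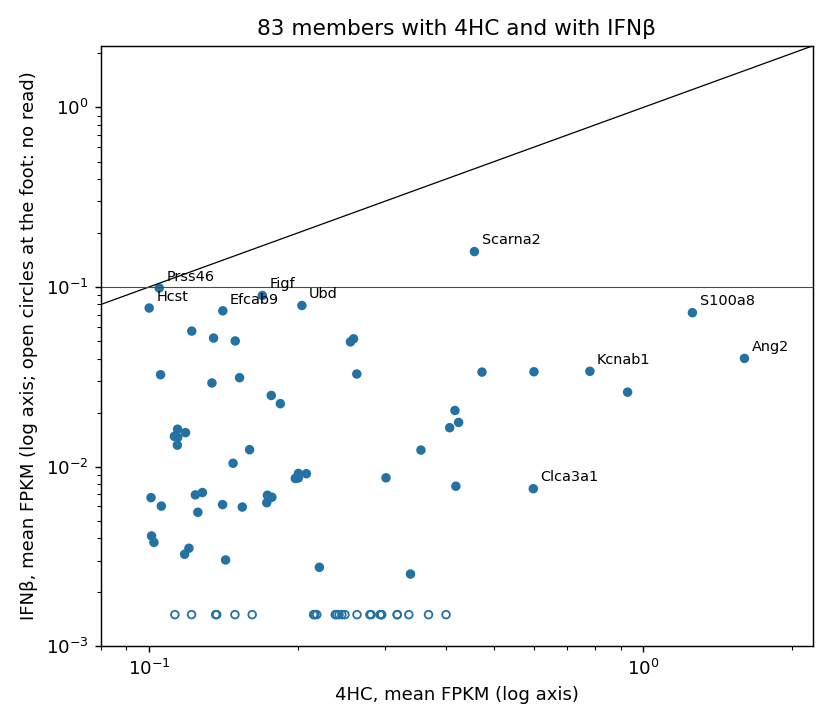
Mean FPKM with IFNβ (log axis) against mean FPKM after 4HC (log axis) for the 83 members, with open circles at the foot for the 25 members without a read, a diagonal of equal levels and a line at 0.1 FPKM. Scarna2 is the single point above the line at 0.158 FPKM.

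With the receptor blocked, the members' means lay within 2-fold of those after 4HC on the log2(FPKM + 0.1) scale, which the choice of members in part sets. The rule asked for 0.1 FPKM in both groups, so a silent row that fell below it with antibody could not be a member, and the values of this comparison are given as a description. There were 33 rows at 0 in control that reached the minimum after 4HC but not with antibody, and 40 that did so with antibody only. A linear model on log2(FPKM + 0.1) over 13426 rows (limma, Benjamini-Hochberg adjusted p below 0.05) called 58 rows (0.432%), 54 lower and 4 higher with antibody, and 0 of the 83 members. At an unadjusted p below 0.05 there were 8 members (9.64%), 6 higher and 2 lower with antibody, beside 5.28% of all rows. On group means the members' log2 ratio of antibody over 4HC had a median of 0.09 and ran from -0.71 to 0.68, with 51 members higher and 32 lower. A 2-fold fall or rise on this scale can occur only in a member with 0.3 FPKM or more in the higher group, a level reached by 20 members after 4HC and 24 with antibody, and none of them passed it. The median over all 12755 rows at 0.1 FPKM or more in both groups was -0.01, and 0.03 over 3550 such rows under 2 FPKM. Over all rows at 0.1 FPKM or more in both groups, 0.76% were over 2-fold lower with antibody and 0.306% higher. Low counts limit this comparison, since the median standard error of a member's log2 difference was 0.24. Taking all 156 silent rows that reached the minimum in either 4HC group, a set chosen after seeing the data, limma called 1. Each row named next entered this set through just the group in which it was higher. The choice therefore sets its direction in part, and the values are given as a description. Grpr was higher with antibody, at 4, 1 and 2 reads after 4HC and 14, 11 and 15 with antibody (log2 difference 0.91 ± 0.12, SE, n = 3 per group, limma adjusted p of 0.00597). In that set 2 rows were over 2-fold lower with antibody. One was Gm4951, at 0.149 FPKM after 4HC, 0.00984 with antibody and 0.817 with IFNβ (limma adjusted p of 0.0831), and the other was 1700120K04Rik, from 8 reads after 4HC. A further 2 rows were over 2-fold higher, Msmp and Rpph1.

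**Figure D4:**
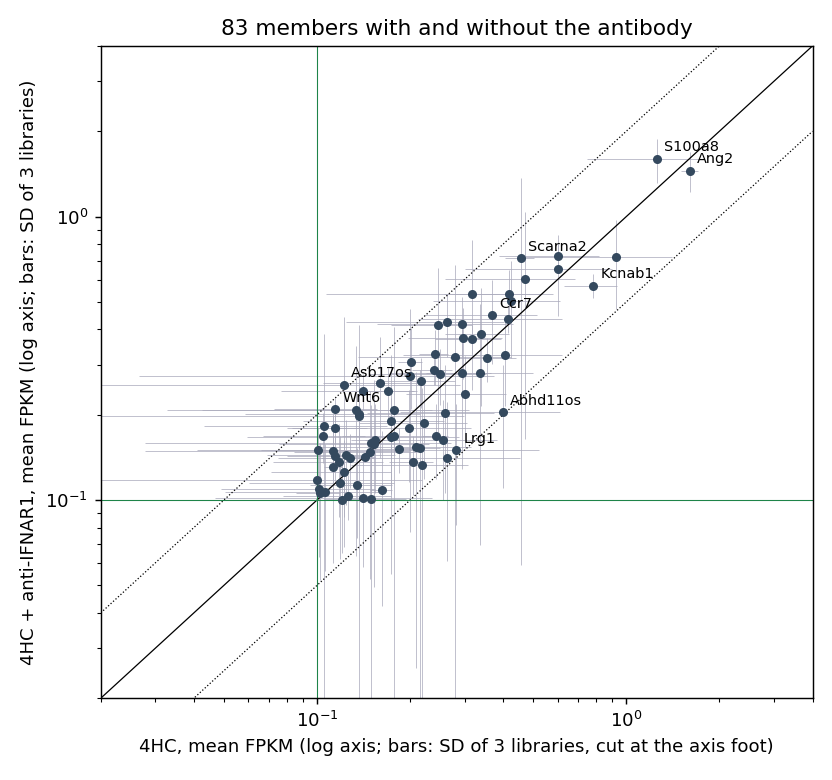
Mean FPKM after 4HC with antibody against 4HC alone (log axes) for the 83 members, with bars for the SD of 3 libraries cut at the foot of the axes, a diagonal of equal levels, dotted lines at 2-fold and lines at the minimum of 0.1 FPKM. The points scatter about the diagonal and their bars cross it in most members.

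Few members, Wnt6 and Kcnab1 among them, stood apart between the groups in every library, and limma called none of them. Wnt6 had a log2 difference of 0.54 ± 0.16 (SE, n = 3 per group, limma adjusted p of 0.545), with all 3 antibody libraries above all 4HC libraries. Kcnab1 was the one member with all antibody libraries below, at -0.38 ± 0.19 (limma adjusted p of 0.953). In all, 3 members (3.61%), Wnt6 and Kcnab1 among them, had no overlap between the groups, beside 12.4% of resolved rows at 0.1 FPKM or more in both. The highest ratios of group means were those of Asb17os at 0.68, Gm17252 at 0.60, Stfa3, a cysteine protease inhibitor, at 0.57, Scarna2 at 0.55 and Lipn, an epidermal lipase, at 0.53 on the log2 scale. Asb17os had 1, 0 and 5 reads after 4HC and 6, 1 and 8 with antibody. The lowest were Abhd11os at -0.71, Lrg1 at -0.61, Acbd7 at -0.59, Inmt, a methyltransferase of tryptamine, at -0.45 and Mdfi, an inhibitor of myogenic transcription factors, at -0.43.

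No gene list held more than 1 member. Of 12 lists, 7 held a single member each and 5 held none. The single members were Cd69 among 7 antiviral and interferon-stimulated genes (14.3%), Ngfr among 14 of the TNF superfamily and S100a8 among 87 leukocyte markers. Figf stood among 44 growth factors and colony stimulating factors, and Dcn among 20 fibroblast and endothelial markers. Krt13 was among 63 epidermal differentiation genes and Oxt among 83 neuronal genes, each count being rows at 0 in control. Genes of the name families left out by rule could not be members. Interferon ligands (25 rows at 0 in control), germline and cancer-testis genes (80), complement and acute phase genes (30) and MHC class II and CD1 genes (8) held no member. The lists are not complete, and the acute-phase gene Lrg1 and the sperm gene Efcab9 stand in none of them. By name family, 0 of 1104 silent odorant receptor rows, 0 of 61 defensin rows and 1 of 8 Wnt ligands were members, beside 0.953% of all silent rows. Going by the table's names, 8 of 1133 silent rows of RIKEN clone genes were members, and 4 of 870 of numbered gene models. Some of these members have a gene name in RefSeq.

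Members lay on 20 chromosomes, with 10 each on chromosomes 11 and 3 (12.05% of members, beside 7.49% and 4.71% of all rows) and 8 on chromosome 5. Their spans had a median of 11128 bases, against 13658 over all rows. Within 50 kb lay 150 other rows that could be tested and did not overlap a member, of which 27 (18%) were higher after 4HC than in control by over 2-fold (limma adjusted p below 0.05), beside 14% of all rows tested, and 3 were lower. The median log2 difference was 0.30 for these neighbours and 0.22 for all rows tested. Of the 83 members, 23 had such a neighbour. Heatr9 lay 3679 bases from Ccl5, a chemokine that went from 2.08 to 48.0 FPKM. Vnn1 lay beside Vnn3, which went from 0.00820 to 0.476 FPKM, and S100a8 lay 10940 bases from S100a7a, at 0.756 FPKM in control and 4.78 after 4HC. On the other hand S100a9, also near S100a8, was at 0 in every group. Neighbours were named after their values were seen.

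At the edge of the rule, levels are decided by few reads. Just inside the minimum lay Hcst (0.1002 FPKM after 4HC from 5 reads), Cyp21a1, a steroid hydroxylase, with 0.1002 FPKM with antibody from 23 reads, and Gm11627 (0.101 FPKM with antibody from 8 reads). Just outside lay Defb25, a defensin with 0.0998 FPKM after 4HC from 3 reads, 1700001L19Rik with 0.0996 FPKM from 19 reads and Prr11 with 0.0986 FPKM with antibody from 45 reads.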

How the data were processed

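RNA of cultured 4T1 cells was sequenced in 11 libraries of 4 groups. Per the labels, libraries were made from poly(A) RNA with a directional kit, and the submitters' processing notes name TopHat2, featureCounts, edgeR and the build mm9. Their versions and the strand setting in counting: not given in the sources used here. The deposited table holds the authors' mean FPKM of each group, printed to 11 decimals, and columns of the authors' own edgeR ratios, fold changes and p-values, which were not used.

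Reads of single libraries were worked back from the mean FPKM (Python 3.11.15, numba 0.67.0). Single reads in single-exon receptor rows (66 values over the 11 libraries) gave library totals within 0.0158 of a whole number. For each row the smallest length at which all groups were sums of whole reads gave the reads of each library, and rows over 12000 reads in a group (1327), with several solutions (357) or with none (2) were not fitted. Recovered means differed from the deposited means by at most 9.3e-12 FPKM. No member's reads shared a common factor. A multiple of length and reads would leave FPKM unchanged.

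Per-library log2(FPKM + 0.1) of rows with 8 or more reads was fitted with limma 3.58.1 (R 4.3.3, mean-variance trend, all 4 groups in one fit, Benjamini-Hochberg over 13426 rows). Tested on simulated data, this fit called more unchanged rows than its nominal rate, which limits the rows called here. The minimum of reads was set after the data had been seen, and all members pass it. Since the deposited unit is FPKM, no count model was run. Folds over control use a floor of 3 reads over the control libraries, which covers counting error in control only. They leave out the error of the 4HC mean and are descriptions, since the rule set both levels. The antibody comparison also used a fold of 2 between group means with the same pseudocount. Named members are the 15 highest after 4HC, the 6 highest with IFNβ, the 5 highest and 5 lowest ratios of antibody over 4HC, members of gene lists (at most 6 a list) and 3 rows on either side of the minimum. Other genes named were chosen after their values were seen. Symbols are the table's names, with reference spelling in place of its capitals. RefSeq matched 81 members, some only by a synonym, such as Figf (RefSeq Vegfd) and Gm17252 (RefSeq Pate1).

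Members and gene lists were chosen with earlier results of these data known. Alternatives to the minimum, names left out, pseudocount, fold and libraries are given in the closing section. One member and one member's promoter are not reported here.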

Additional observations from a re-analysis of the deposited data

How the results depend on the processing

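The number of members followed the rule's settings. It was 196 at a minimum of 0.05 FPKM, 33 at 0.2, 6 at 0.5 and 2 at 1, and 128 with no name left out and 131 with control below 0.01 FPKM. Without the antibody group in the rule it was 116. Leaving out each library in turn, an alternative chosen after seeing the data, gave 72 to 160 members, the highest without a control library. With IFNβ, 11 members reached 0.05 FPKM, 0 reached 0.2 and 58 were above 0, against 1 at 0.1. Past a fold of 1.5 in place of 2, 3 members were lower and 2 higher with antibody. With no pseudocount or one of 0.01, 1 was higher. Over silent rows at the minimum in either 4HC group, chosen after seeing the data, 2 were lower, 2 higher and 1 was called by limma. That choice sets their directions in part. The median log2 ratio of antibody over 4HC stayed between 0.02 and 0.13 under other pseudocounts and was 0.11 when centred on rows above 1 FPKM. Among rows at 1 FPKM or more in both groups, 0% were over 2-fold higher with antibody.

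The count of 0 members called by limma for antibody against 4HC stayed 0 with pseudocounts of 0.01 and 1, with no minimum of reads, with rows at 0.1 FPKM or more in a library only, and without each library in turn (range 0 to 0), all chosen after seeing the data. Members at an unadjusted p below 0.05 numbered 0 to 14 over these settings. The count of 0 is a description, since the rule sets a minimum in both 4HC groups. In the main fit 0.432% of all rows were called. The smallest adjusted p was 0.0514, for 4930539M17Rik (log2 difference -0.85) without antibody library 2. No paired analysis was possible because recovered libraries carry no replicate number. Depth limits the members with fewest reads, Scarna2, Hcst, Oxt and Asb17os.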
